A study of Mus musculus with 6 samples.

Results

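The genes described here are 10 transcripts that mark or specify amacrine and horizontal cells, the inhibitory interneurons of the retina. They were listed by name, though with earlier results of these data known. Of them 8 encode transcription factors that direct cell fate (Foxn4, Ptf1a, Tfap2a, Tfap2b, Tfap2c, Onecut1, Onecut2 and Onecut3) and 2 encode cytosolic calcium buffers of mature interneurons (Calb1, calbindin, and Calb2, calretinin). All 10 were found among the 39179 gene rows of the deposited files, and all 10 passed the filter on low counts, which left 16691 genes for testing. The samples were whole retinas of mice at postnatal day 0.5, on a mixed and mainly CD-1 background. In 3 Lhx2 conditional knockout animals (cKO 1, 2 and 3; Lhx2 lox/lox with Pdgfrα-Cre) both alleles of Lhx2, a LIM homeodomain factor of retinal progenitors, were floxed and a Cre recombinase was driven by a Pdgfrα promoter. The 3 controls (control 2, 3 and 4; Lhx2 lox/lox) carried the same floxed alleles without Cre, although the series text calls them wild type. Deletion therefore depends on which cells have expressed the Cre transgene. Whole retina was sequenced, and in such bulk RNA fewer cells of a type and less RNA per cell cannot be told apart.

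Amacrine and horizontal cells descend from retinal progenitors that switch on the forkhead factor Foxn4, which acts upstream of the basic helix-loop-helix factor Ptf1a. Ptf1a directs its cells away from the ganglion cell fate, and Tfap2a and Tfap2b, AP-2 family factors, act after it in amacrine and horizontal precursors. The Onecut factors (CUT and homeodomain proteins) are needed for the horizontal cell fate and are also found in young ganglion cells and cone precursors. Calbindin and calretinin are EF-hand proteins that bind free calcium. In the mouse retina calbindin is the standard marker of horizontal cells and is also found in some amacrine and ganglion cells, and calretinin marks amacrine and ganglion cells.

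Reads counted on genes came to between 31483170 and 66947478 per library. The libraries formed 2 sets that cross genotype and have no counterpart in the labels. Reads that could belong to several genes made up 3.13 to 3.203% of deposited counts in set A (cKO 1, cKO 2 and control 2) and 2.63 to 2.69% in set B (cKO 3, control 3 and control 4). Between the sets, 63.7% of the tested genes differed by edgeR's quasi-likelihood test with Benjamini-Hochberg adjustment (threshold 0.05). Set was therefore a term in the fit that compares genotypes, and the values within each set are given beside the pooled ones. By their Y-linked transcripts control 2 and control 4 were male, and all 3 cKO animals and control 3 were female, so that set A has no control of the same sex as its cKO animals. Lhx2 itself was counted at 254 ± 31.3 CPM in cKO and 308 ± 79.0 CPM in controls (CPM, reads of a gene scaled to a common library size; SD, n = 3 each), and its log2 fold change was -0.40 (SE 0.10, adjusted p = 0.0338 by edgeR). The groups overlapped, with cKO 2 above controls 3 and 4. The call was lost with genotype alone (adjusted p = 0.817), with a term for sex (0.371), and without cKO 2 (0.0602), cKO 3 (0.0727), control 2 (log2 fold change -0.22, adjusted p = 0.414) or control 3 (0.0794). Its reads were counted over the whole gene and not over the floxed exons alone. Pdgfra, the gene whose promoter was used for Cre, stood at 24.7 ± 10.3 CPM in cKO and 30.6 ± 10.1 CPM in controls (log2 fold change -0.01, SE 0.12).

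Of the 8 fate factors 2, Foxn4 and Ptf1a, were called lower in cKO retinas (adjusted p under 0.05), where 5.63% of all tested genes were called lower, and their upstream sequences are shown because they passed the test in the same direction. RefSeq promoter windows on GRCm38.p6 were found for 5 of the 10 genes (Foxn4, Ptf1a, Onecut1, Tfap2a and Tfap2b). Each sequence below runs 5′ to 3′ on the strand of its gene and covers up to 250 bases before the RefSeq start, without bases that GENCODE places inside the gene. For Ptf1a that is chr2:19445413-19445662 on the plus strand, 250 bases with 66.0% G and C. For Foxn4 it is chr5:114273808-114274011 on the minus strand, 204 bases with 64.7% G and C. Capitals mark TGGGAA, the core bound by RBPJ, a partner of Ptf1a in the PTF1 complex.
Ptf1a: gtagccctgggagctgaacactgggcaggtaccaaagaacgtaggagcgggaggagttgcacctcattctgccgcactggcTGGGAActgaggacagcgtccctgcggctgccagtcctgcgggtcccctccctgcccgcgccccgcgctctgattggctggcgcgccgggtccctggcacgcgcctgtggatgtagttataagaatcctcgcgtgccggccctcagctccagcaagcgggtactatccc
Foxn4: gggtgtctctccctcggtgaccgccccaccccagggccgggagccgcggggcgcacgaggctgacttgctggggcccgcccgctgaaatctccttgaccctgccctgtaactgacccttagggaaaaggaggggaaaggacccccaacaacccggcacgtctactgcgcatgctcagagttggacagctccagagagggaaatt
TGGGAA was searched on both strands and was found 1 time in the Ptf1a window, 169 bases before the start, and 0 times in the Foxn4 window. Windows of the same length hold it in 21.6% (250 bases) and 18.3% (204 bases) of all 32851 RefSeq promoters. TAATTA, the core bound by many homeodomain factors, was found 0 times in either window, and 4.84% and 4.26% of all promoters of those lengths hold it. GACGC, a core bound by FOXN factors, was found 1 time in the Ptf1a window, on the minus strand 154 bases before the start (22.6% of promoters hold it), and 0 times in the Foxn4 window (18% hold it). CANNTG, the E-box bound by basic helix-loop-helix factors, was found 0 times in either, against 66.2% and 59.7% of promoters. The TFAP2 palindrome GCCNNNGGC (13.7% and 10.8% of promoters), the ONECUT core ATTGAT (6.72% and 5.87%) and the TATA box TATAAA (12.4% and 9.3%) were also found 0 times in either window. These matches describe the letters of the windows only.

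Foxn4 was lower in every cKO retina. Foxn4 (ENSMUSG00000042002; GRCm38 chromosome 5, 114254164 to 114273807, minus strand) was counted at 86.4, 105 and 86.0 CPM in cKO 1, 2 and 3, against 170, 129 and 117 CPM in controls 2, 3 and 4. All 3 cKO libraries lay below all 3 controls. The log2 fold change was -0.67 (SE 0.11, 95% interval -0.92 to -0.42, adjusted p = 0.00696, edgeR with library set). Within set A the difference was -0.83 and within set B -0.52 on the log2 scale. Without control 2 the call was lost (-0.52, adjusted p = 0.104), as it was with a term for sex added (-0.70, adjusted p = 0.122) and with genotype alone (-0.58, adjusted p = 0.546).

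Ptf1a (ENSMUSG00000026735; chromosome 2, 19445663 to 19447501, plus strand) was also lower in cKO retinas, by the fit with library set. It had 262, 338 and 60 reads in cKO 1, 2 and 3, which came to 4.68, 4.67 and 2.04 CPM. Controls 2, 3 and 4 had 323, 148 and 118 reads and 7.06, 4.43 and 3.91 CPM. The groups overlapped over all libraries, but within each set every cKO library was below every control. The log2 fold change was -0.79 (SE 0.19, 95% interval -1.23 to -0.35, adjusted p = 0.0328, edgeR). Set A alone gave -0.59 and set B alone -1.01. The call was lost with genotype alone (-0.43, adjusted p = 0.817) and with a term for sex added (-0.999, adjusted p = 0.135). It also did not hold without any one of cKO 2 (adjusted p = 0.0717), cKO 3 (0.293), control 2 (0.0990), control 3 (0.0810) or control 4 (0.0664). The antisense transcript Ptf1aos covers 40.4% of the Ptf1a exon bases, and had at most 6 reads in any library. The counting is not stated to use strand. If strand was not used, reads on bases shared by a gene and its antisense partner cannot be told apart. Such reads may have been set aside as ambiguous, so the level of Ptf1a may be understated in both groups.

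Since Foxn4 marks a subset of progenitors, its level was set beside theirs. Of the 12 tested progenitor markers 8 were lower, Sfrp2 was higher and 3 did not pass, with a median log2 fold change of -0.61, against -9.82e-04 over all tested genes. Lhx2, the floxed gene itself, is 1 of the 8 and is part of the summed level. That level was 4340 to 6022 CPM in cKO and 7867 to 8178 CPM in controls. An example was Fgf15, a growth factor of progenitors, at 50.4 ± 4.88 CPM in cKO and 135 ± 35.3 CPM in controls (log2 fold change -1.52, SE 0.13; SD, n = 3). Hes1, a Notch effector, fell by 0.82 on the log2 scale (SE 0.10). Sfrp2, a secreted Wnt modulator, was at 471 ± 36.0 CPM in cKO and 66.6 ± 35.02 CPM in controls. The ratio of Foxn4 to the summed markers was 0.0199, 0.0202 and 0.0143 in cKO 1, 2 and 3, and 0.0216, 0.0158 and 0.0148 in controls 2, 3 and 4. The groups overlap in this ratio, and within each set the cKO values are below the control values. The sum includes Sfrp2, which was higher in cKO while 8 markers were lower, so this order within sets may depend on that 1 marker. The ratio without Sfrp2 was not taken. The count of lower progenitor markers was 5 without control 2, 2 with a term for sex and 0 with genotype alone. The part of the progenitor level in the Foxn4 difference was not tested.

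The AP-2 factors were not called. Tfap2a (ENSMUSG00000021359; chromosome 13, 40715302 to 40738376, minus strand), an early factor of amacrine and horizontal precursors, stood at 85.2, 110 and 98.6 CPM in cKO 1, 2 and 3, against 105, 115 and 144 CPM in controls 2, 3 and 4. Its groups overlapped, with a log2 fold change of -0.25 (95% interval -0.56 to 0.06, adjusted p = 0.295, edgeR). That value was -0.0776 without cKO 3, -0.39 without control 2 and -0.0890 with a term for sex. An antisense gene, Gm26688, shares 7.75% of its exon bases and had 87 to 143 reads per library. Tfap2b (ENSMUSG00000025927; chromosome 1, 19208914 to 19238576, plus strand), a partner of Tfap2a in the same cells, was the most abundant of the fate factors. It was counted at 210, 234 and 653 CPM in cKO 1, 2 and 3, and at 247, 683 and 787 CPM in controls 2, 3 and 4. The 2 high values in controls and the 1 high value in cKO belong to set B. With set in the fit the genotype difference was -0.16 (95% interval -0.37 to 0.05, adjusted p = 0.308, edgeR). The within-set values were -0.16 (A) and -0.17 (B). Tfap2c (ENSMUSG00000028640; chromosome 2, 172549593 to 172558622, plus strand), the third AP-2 gene, had 20.1, 20.2 and 23.7 CPM in cKO 1, 2 and 3, and 22.5, 31.9 and 34.7 CPM in controls 2, 3 and 4. It was below its controls in both sets, by -0.32 on the log2 scale (SE 0.11, 95% interval -0.58 to -0.07, adjusted p = 0.0988, edgeR). DESeq2 with the same terms called Tfap2c lower (-0.36, adjusted p = 0.0361), the single call by that tool among the AP-2 and Onecut genes. That was the only 1 of 15 alternatives to call Tfap2c, and without cKO 3 its difference was -0.13 (adjusted p = 0.718).

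The Onecut genes differed less between genotypes than between library sets. Onecut1 (ENSMUSG00000043013; chromosome 9, 74861921 to 74891781, plus strand), needed for horizontal cells, had 2.75, 3.23 and 11.2 CPM in cKO 1, 2 and 3, and 3.61, 10.6 and 9.91 CPM in controls 2, 3 and 4. Onecut2 (ENSMUSG00000045991; chromosome 18, 64340020 to 64400987, plus strand), its close relative, had 28.1, 29.0 and 46.6 CPM in cKO 1, 2 and 3, and 29.9, 41.7 and 46.5 CPM in controls 2, 3 and 4. Onecut3 (ENSMUSG00000045518; chromosome 10, 80494835 to 80517276, plus strand), the third of the family, had 4.998, 5.51 and 11.8 CPM in cKO 1, 2 and 3, and 4.55, 8.41 and 11.9 CPM in controls 2, 3 and 4. In all 3 genes each library of set B was above each library of set A, whatever its genotype. The genotype log2 fold changes were -0.06 (95% interval -0.44 to 0.32, adjusted p = 0.863) for Onecut1, 0.01 (-0.20 to 0.21, adjusted p = 0.971) for Onecut2 and 0.21 (-0.18 to 0.61, adjusted p = 0.499) for Onecut3. The sign of Onecut1 and Onecut2 turned under some alternative settings, and that of Onecut3 with genotype alone (-0.16). The Onecut3 value was 0.55 with a term for sex and 0.0969 without control 3. Of the Onecut1 exon bases 52.8% are shared with Gm20649, a long non-coding gene on the same strand that had 0 reads in every library. Reads there may have been set aside as ambiguous, so the level of Onecut1 may be understated in both groups.

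**Figure D1:**
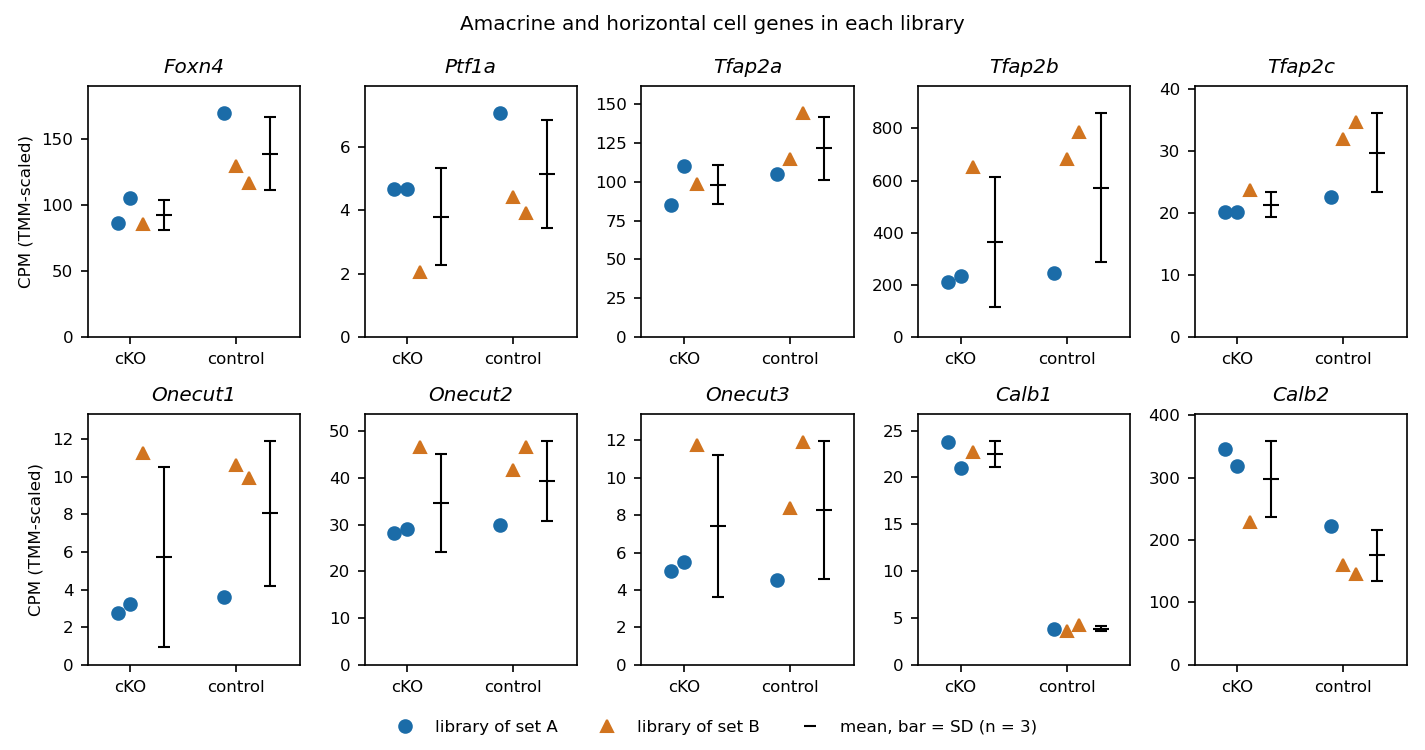
CPM of the 10 genes in each library (1 panel a gene, linear axis from 0, cKO left of control). Circles are libraries of set A, triangles of set B, and black bars are the mean and SD of 3 libraries. Calb1 lies at 21.0 to 23.8 CPM in cKO and at 3.59 to 4.21 CPM in controls, while the Onecut genes and Tfap2b separate by symbol and not by genotype.

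Calb1 rose 5.82-fold in cKO retinas, and by almost the same amount in both library sets. Calb1 (ENSMUSG00000028222; chromosome 4, 15881264 to 15908064, plus strand) had 1334, 1520 and 667 reads in cKO 1, 2 and 3, which came to 23.8, 21.0 and 22.7 CPM. Controls 2, 3 and 4 had 176, 120 and 127 reads and 3.85, 3.59 and 4.21 CPM. The lowest cKO library was far above the highest control. On the log2 scale the change was 2.54 (SE 0.13, 95% interval 2.24 to 2.84, adjusted p = 1.22e-05 by edgeR). Within set A the difference was 2.53 and within set B 2.53 on the log2 scale. It was the only one of the 10 genes called with genotype alone (2.54, SE 0.19, adjusted p = 0.0245), and it was called in all 15 alternatives, with log2 fold changes from 2.48 to 2.69.

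Calb2 (ENSMUSG00000003657; chromosome 8, 110137502 to 110168210, minus strand) also rose, by a smaller fold from a higher level. It stood at 346, 319 and 229 CPM in cKO 1, 2 and 3, against 222, 159 and 146 CPM in controls 2, 3 and 4. All cKO libraries were above all controls, though cKO 3 exceeded control 2 by little. On the log2 scale the change was 0.58 (SE 0.08, 95% interval 0.40 to 0.77, adjusted p = 0.00339 by edgeR). Set A alone gave 0.58 and set B alone 0.59. The call was lost with genotype alone (0.76, adjusted p = 0.508), with a term for sex added (0.50, adjusted p = 0.134) and without cKO 3 (0.61, adjusted p = 0.0560).

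Counted by role, both calcium buffers were higher, while 2 of the 8 fate factors were lower, 0 were higher and 6 did not pass. At an unadjusted p under 0.05 the same edgeR test gave 3 lower and 0 higher fate factors, and DESeq2 called 3 lower and 0 higher. Over all 16691 genes 2168 were lower and 2227 higher at that unadjusted threshold, and DESeq2 called 1672 lower and 1204 higher. In the adjusted edgeR test 12% of all tested genes were called, 6.36% higher and 5.63% lower. With genotype alone 0.216% of genes were called, all higher, with Calb1 among them. In the 3 cKO libraries, each set against the controls of its own set, the median log2 difference of the fate factors was -0.27, -0.12 and -0.28, beside 2.62, 2.44 and 2.53 for Calb1 and 0.64, 0.52 and 0.59 for Calb2. In 3 of the 10 genes the groups did not overlap, with cKO above in Calb1 and Calb2 (8.38% of tested genes) and below in Foxn4 (5.54%), or 13.9% in either direction. Within each set cKO and control kept to the same sides in 6 genes, above in Calb1 and Calb2 (22.9% of tested genes) and below in Foxn4, Ptf1a, Tfap2b and Tfap2c (23.9%), or 46.7% in either direction.

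**Figure D2:**
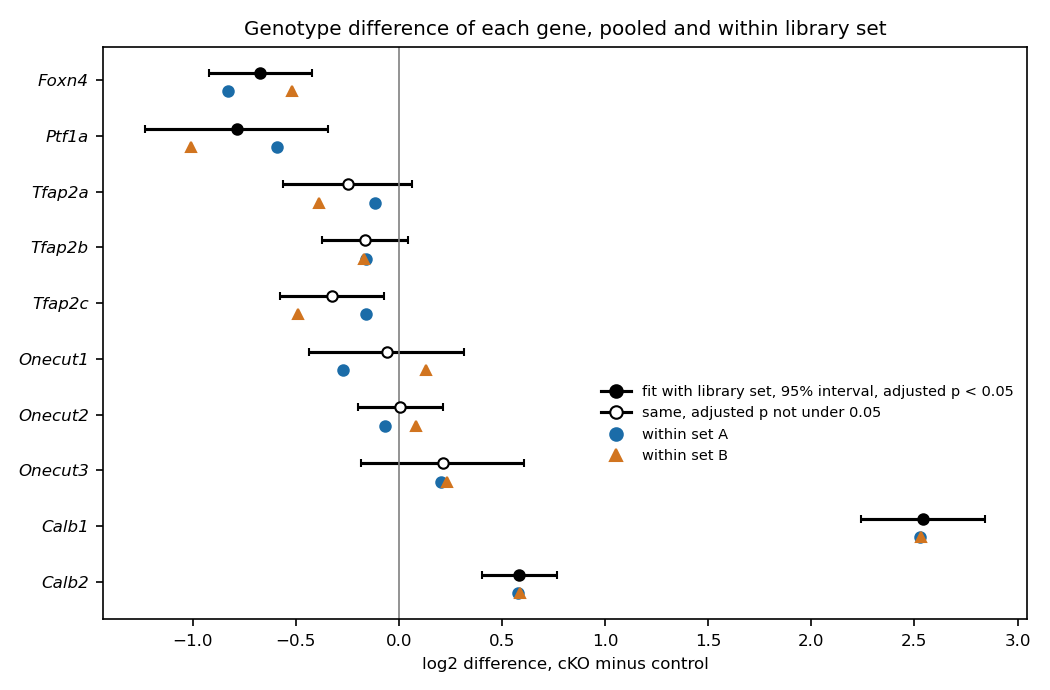
Log2 difference (cKO minus control) of each gene. Black circles with bars are the fit with library set and its 95% interval, filled where adjusted p was under 0.05, and coloured symbols are the differences within each set. The buffers at the bottom lie right of 0 with both sets at the same place, Foxn4 and Ptf1a lie left of 0, and the intervals of the Onecut genes, Tfap2a and Tfap2b span 0.

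The edgeR test of whether the genotype difference itself differed between the sets called 0 of the 10 genes (adjusted p under 0.05). Over all tested genes it called 0.024%. For Calb1 the difference between sets was 0.00 on the log2 scale (95% interval -0.65 to 0.65), and for Calb2 0.01 (-0.40 to 0.42). For Ptf1a it was -0.43 (-1.32 to 0.45) and for Foxn4 0.30 (-0.18 to 0.78). The intervals still allow sizeable differences between sets for each of these genes, Calb1 and Calb2 included.

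The estimated difference between the sets was larger in size than that between genotypes for 6 of the 8 fate factors, all but Foxn4 and Tfap2a. Of the 10 genes 8 differed between sets at an adjusted p under 0.05 in edgeR, beside 63.7% of all tested genes. Of these, 5 were higher in set B (32.5% of tested genes) and 3 were lower (31.2%). Onecut1 was higher in set B by 1.71 on the log2 scale (SE 0.17), Tfap2b by 1.56 (SE 0.09), Onecut3 by 1.16 (SE 0.18), Onecut2 by 0.64 (SE 0.09) and Tfap2c by 0.40 (SE 0.11). Lower in set B were Ptf1a (-0.96, SE 0.20), Calb2 (-0.54, SE 0.08) and Foxn4 (-0.31, SE 0.11). Tfap2a (0.16, SE 0.14) and Calb1 (0.02, SE 0.13, adjusted p = 0.908) did not pass. The Onecut genes, Tfap2b and Tfap2c were thus higher in set B, while Foxn4 and Ptf1a were lower.

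**Figure D3:**
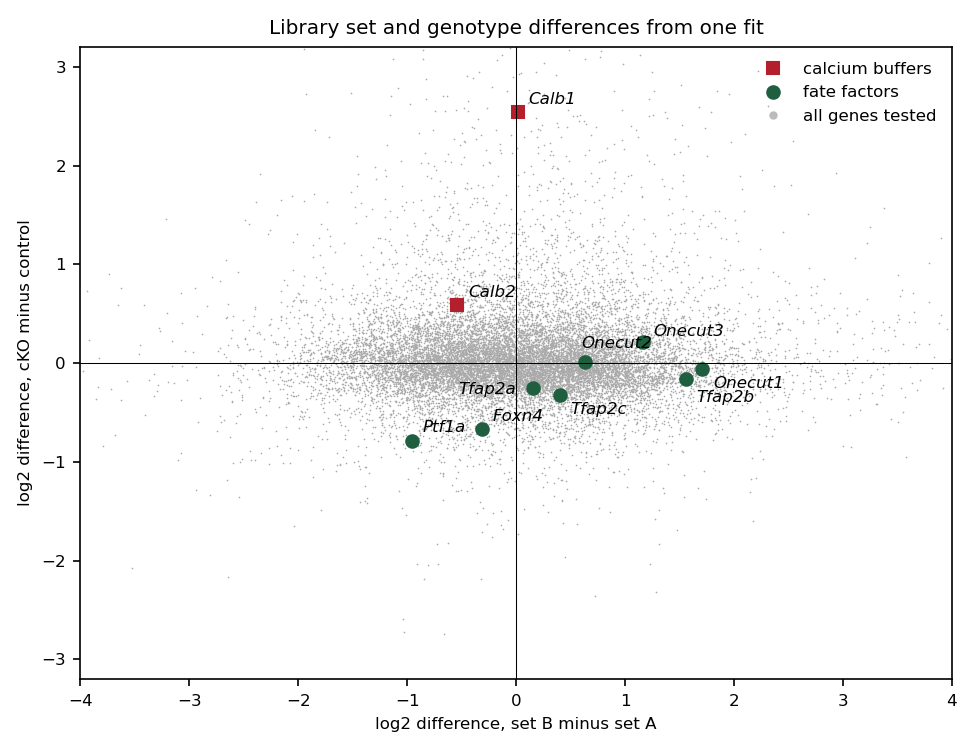
Log2 difference between library sets (x axis, B minus A) against that between genotypes (y axis, cKO minus control), both from one fit. Grey points are the tested genes, of which 185 lie outside the axes, red squares are the calcium buffers and green circles the fate factors. Calb1 lies at 0.02 and 2.54, and Onecut1 at 1.71 and -0.06.

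Compared per length of exon (CPM per kb), Calb1 was the lowest of the 10 genes in controls. It averaged 4.64 ± 0.29 CPM per kb in cKO and 0.801 ± 0.064 CPM per kb in controls (SD, n = 3). In cKO the order of the mean levels was Calb2 (171), Tfap2b (57.7), Foxn4 (27.5), Tfap2a (20.0), Tfap2c (5.80), Calb1 (4.64), Ptf1a (2.52), Onecut2 (2.13), Onecut3 (1.56) and Onecut1 (1.40 CPM per kb). In controls it was Calb2 (101), Tfap2b (90.3), Foxn4 (41.2), Tfap2a (24.8), Tfap2c (8.08), Ptf1a (3.40), Onecut2 (2.42), Onecut1 (1.96), Onecut3 (1.74) and Calb1 (0.801 CPM per kb). Over libraries, Ptf1a overlaps with Onecut2, and the Onecut genes with each other, in both groups, as do Calb2 with Tfap2b and Tfap2b with Foxn4 in controls. Overlap over libraries does not compare genes within a library, where Onecut2 was above Onecut3 each time. In controls 2, 3 and 4 Tfap2b was at 39.0, 108 and 124 CPM per kb, and Foxn4 at 50.4, 38.4 and 34.7 CPM per kb. The order of neighbours was not tested. On these lengths Calb1 stood above each of the Onecut genes in every cKO library and below each of them in every control library. The lengths include bases shared with other genes, 52.8% for Onecut1 and 40.4% for Ptf1a, where reads may have been set aside as ambiguous. Both genes may therefore rank too low, and the order of Onecut1 and Calb1 in cKO libraries is uncertain. The ratio of Calb1 to the summed Onecut CPM was 0.664, 0.557 and 0.326 in cKO 1, 2 and 3, and 0.101, 0.0591 and 0.0616 in controls 2, 3 and 4.

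Other genes of horizontal cells mostly did not pass the test. Of 9 tested genes from a list of 10, 2 were higher, 0 were lower and 7 did not pass, with a median log2 fold change of 0.22. At an unadjusted p under 0.05, 4 were higher and 0 lower, and DESeq2 called 3 higher. The called ones were Nefm, a neurofilament that ganglion cells also make, at 300 ± 66.8 CPM in cKO and 254 ± 63.7 CPM in controls (log2 fold change 0.45, SE 0.08, adjusted p = 0.00828), and Sall3, a zinc finger factor of horizontal cells, at 19.6 ± 2.31 CPM in cKO and 13.7 ± 1.95 CPM in controls (0.53, SE 0.15, adjusted p = 0.04995). No call in the list held with genotype alone, or without cKO 3, control 2 or control 3. Sept4 (0.48, adjusted p = 0.0709) and Slc4a3 (0.30, adjusted p = 0.0622) missed the threshold. Lhx1, the LIM factor of horizontal cells, was at 6.13 ± 1.56 CPM in cKO and 6.33 ± 2.27 CPM in controls (log2 fold change 0.22, SE 0.19, adjusted p = 0.512), and Prox1, a factor of horizontal and amacrine cells, at 91.6 ± 30.3 CPM in cKO and 115 ± 20.3 CPM in controls (-0.16, SE 0.14, adjusted p = 0.533).

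Amacrine cell genes were mixed. Of 22 tested, 8 were higher, Sox2 was lower and 13 did not pass, with a median of -0.03. Sox2 is also counted among the lower progenitor markers. The higher genes included Ebf1, Ebf2, Ebf3, Lmo3, Neurod2, Neurod6 and Isl1, transcription factors or cofactors of postmitotic neurons of which the Ebf genes and Isl1 are also factors of ganglion cells. Ebf2 was at 11.8 ± 3.03 CPM in cKO and 3.49 ± 0.40 CPM in controls (log2 fold change 1.87, SE 0.16, adjusted p = 3.24e-04). Lmo3 was at 6.40 ± 1.37 CPM in cKO and 1.65 ± 0.26 CPM in controls (2.10, SE 0.19, adjusted p = 4.64e-04), and Neurod6, a factor of a subset of amacrine cells, at 2.50 ± 2.11 CPM in cKO and 0.586 ± 0.305 CPM in controls (2.54, SE 0.30, adjusted p = 0.00177). Ebf3 rose by 1.13 (SE 0.10, adjusted p = 3.82e-04). Neurod4 (-0.50, adjusted p = 0.0514 by edgeR) and Neurod1 (-0.30, adjusted p = 0.0965) missed the threshold on the lower side. Barhl2, which acts in amacrine subtypes (0.31, adjusted p = 0.0743), and Prdm13, a target of Ptf1a (-0.18, adjusted p = 0.240), did not pass. At an unadjusted p under 0.05 edgeR gave 9 higher and 3 lower, and DESeq2 called 8 higher and 3 lower. Without cKO 3 the higher genes came to 5, with a term for sex to 3 and with genotype alone to 0.

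Genes of inhibitory transmission were not called with library set in the fit. Their list also holds receptor subunits and genes of other transmitters, such as the dopamine enzyme gene Th. Of 12 tested, 0 passed in edgeR in either direction, with a median of 0.10. Other edgeR settings called some higher, 2 with no scaling, 2 with no filter, 1 with a mean CPM of at least 1, 1 with the replicate block and 2 without cKO 1. At an unadjusted p under 0.05, 3 were higher and 0 lower, and DESeq2 called 1. Gad1, a GABA-synthesizing enzyme, was at 41.3 ± 7.98 CPM in cKO and 37.9 ± 7.52 CPM in controls (log2 fold change -0.03, SE 0.09). Gad2, the other such enzyme, was at 107 ± 20.2 CPM in cKO and 86.8 ± 7.77 CPM in controls (0.37, SE 0.11, adjusted p = 0.0574). The glycine receptor subunit gene Glra2 (0.32, adjusted p = 0.0641), the dopamine enzyme gene Th (1.18, adjusted p = 0.108) and the vesicular transporter gene Slc32a1 (-0.24, adjusted p = 0.199) also missed the threshold.

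Other EF-hand calcium-binding genes mostly did not pass the test. Of 22 tested, 3 were higher, 0 were lower and 19 did not pass, with a median of 0.07. Ncs1, a neuronal calcium sensor, was at 139 ± 57.8 CPM in cKO and 78.2 ± 50.9 CPM in controls (log2 fold change 0.45, SE 0.09, adjusted p = 0.0118). Guca1b, a sensor of photoreceptors, was at 1.86 ± 0.92 CPM in cKO and 0.469 ± 0.106 CPM in controls (1.63, SE 0.36, adjusted p = 0.0215), and Cabp5, a sensor of bipolar cells, rose by 0.82 (SE 0.22, adjusted p = 0.0471). Necab3 missed the threshold (0.59, adjusted p = 0.0940). Pvalb, which encodes parvalbumin, another calcium buffer, had 2 to 13 reads per library and was not tested. With a term for sex, with genotype alone or without cKO 3, 0 of the list were called.

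**Figure D4:**
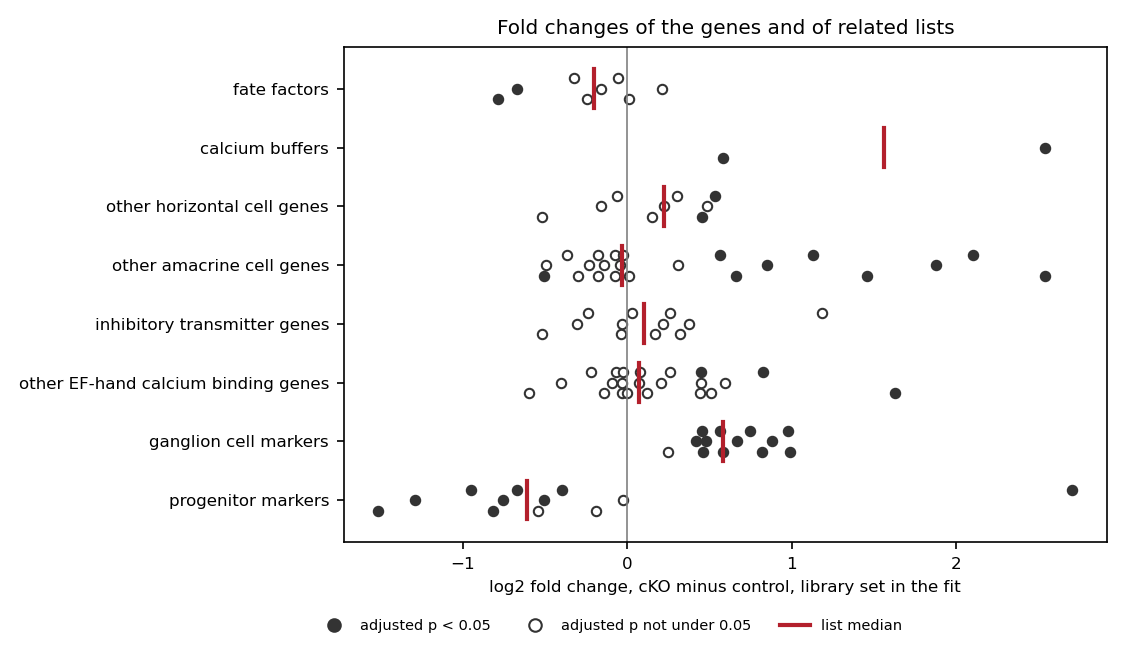
Log2 fold changes (cKO minus control, library set in the fit) of the fate factors, the calcium buffers and related gene lists, 1 point a tested gene, filled where adjusted p was under 0.05, with red bars at list medians. Points are offset vertically for legibility. Ganglion cell markers lie right of 0 and progenitor markers mostly left, with medians of 0.58 and -0.61, while the lists of horizontal, amacrine and inhibitory transmission genes have medians of 0.22, -0.03 and 0.10.

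Markers of several other cell types, though not of all, were also higher in cKO. Ganglion cell markers were higher, 12 of 13, with a median of 0.58 and a summed level of 3182 to 3491 CPM in cKO and 2108 to 2220 CPM in controls, and none was at 0 reads in every library. Gap43, a growth cone protein, was at 520 ± 73.6 CPM in cKO and 239 ± 63.4 CPM in controls (log2 fold change 0.98, SE 0.09). Pou4f1 (0.82), Pou4f3 (0.99) and Slc17a6, a glutamate transporter (0.67), were also higher. The count of higher ganglion cell markers was 3 when cKO 3 was left out, 7 when control 3 was left out, 1 with a term for sex and 0 with genotype alone. The ratio of Calb2 to the summed ganglion cell markers was 0.103, 0.100 and 0.0657 in cKO 1, 2 and 3, and 0.100, 0.0732 and 0.0692 in controls 2, 3 and 4, so the groups overlapped in it. The ratio of Calb1 to the same sum was 0.00710, 0.00660 and 0.00650 in cKO, and 0.00173, 0.00165 and 0.00200 in controls, so cKO libraries were all above controls. Lens markers were higher, 12 of 12 tested, with a summed level of 876 to 2357 CPM in cKO and 2.60 to 6.27 CPM in controls. Among them Crybb1, Cryba1 and Cryaa are crystallins. Lim2 and Foxe3, lens genes that were not tested, were at 0 reads in every control. Of 8 tested forebrain and hypothalamus markers 5 were higher, among them Otp, Tbr1, Neurod6 and Sim1. Their summed level was 49.1 to 87.5 CPM in cKO and 27.1 to 33.4 CPM in controls, summed over the tested markers. Sim1 was at 0 reads in every control, as were Nkx2-1 and Avp, which were not tested. The count of 5 was 3 without cKO 3, 3 with a term for sex and 1 with genotype alone. Of 10 tested markers of endothelium, pericytes and blood 7 were higher and Kdr was lower. Their sum was not higher in cKO, at 315 to 594 CPM against 557 to 721 CPM in controls. The count of 7 was 1 without cKO 3, 3 with a term for sex and 0 with genotype alone. Photoreceptor markers (1 higher and 2 lower of 8), bipolar markers (2 higher of 4), pigment epithelium and ciliary markers (0 of 8) and astrocyte markers (0 of 6) made up the rest. The part of these cell types in the Calb1 and Calb2 differences was not tested.

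The genes most like each called gene were found by the Pearson correlation of log2 CPM over the 6 libraries, among 12059 genes with a mean of at least 2 CPM. These values are a description, since the libraries share genotype and set and so many genes follow the same course. For Calb1 they were Vit, an extracellular matrix protein (r = 0.999), Nhlh1, a basic helix-loop-helix factor of young neurons (0.995), and Sgk1, a kinase (0.995). Vit was at 38.8 CPM in cKO and 5.15 CPM in controls, and Nhlh1 at 20.2 CPM in cKO and 3.26 CPM in controls. For Calb2 they were Rxrg, a nuclear receptor (0.997), C1qa, a complement gene of microglia (0.996), and Prkcd, a kinase (0.995). For Foxn4 they were Adamts15, a secreted protease (0.999), Chaf1b, a histone chaperone subunit (0.998), and Racgap1, a cytokinesis protein (0.994). For Ptf1a they were Zw10, a kinetochore protein (0.998), Sema3f, a guidance cue (0.991), and Cth, an enzyme of cysteine synthesis (0.990). Among the 10 genes themselves r was 0.986 for Onecut1 with Tfap2b and 0.983 for Onecut1 with Onecut2, which are the genes that follow library set, and 0.821 for Calb1 with Calb2.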

How the data were processed

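The authors deposited raw counts, whole numbers of reads for each Ensembl identifier, in 1 file a library. STAR, HTSeq, edgeR and GRCm38 are named, per the submitters' processing notes; versions and strand setting were not given in the sources used here. RNA came from frozen retinas by Qiagen RNeasy and was built into Illumina TruSeq RNA libraries, per the labels' protocols. The 5 rows that name no gene (26.4 to 28.8% of counts) stayed out of library sizes and tests. GENCODE vM21 gave symbols for 37693 of 39179 identifiers, coordinates and exon lengths; sequences are from RefSeq (GRCm38.p6).

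The test was run in edgeR 4.0.16 under R 4.3.3 (low counts removed by filterByExpr, TMM scaling, glmQLFit and glmQLFTest), with library set and genotype as terms and 3 residual degrees of freedom. P-values are 2-sided, Benjamini-Hochberg adjusted over all 16691 tested genes, with a threshold of 0.05. Library set was defined by an ambiguous share above or below 2.9%. Differences within a set use log2 CPM with a prior count of 2. Each standard error is the log2 fold change over the root of F, with 95% intervals built on it. Depth makes counting error small for all but the low genes. Libraries of a group differed by 23.0 to 532 times the counting expectation, so none was 1 library deposited 2 times; they were taken as separate animals, as the series text gives 3 a group, but nothing in the labels says that litters or extractions were separate, and p-values then measure only the spread between these libraries.

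The genes, lists, library sets and tests were chosen with earlier results of these data known. Genes outside the 10 were named by rule: Lhx2 and Pdgfra, up to 4 members of smallest adjusted p per list, and the 3 most correlated genes per called gene. Others (Lhx1, Prox1, Barhl2, Prdm13, Neurod1, Neurod4, Gad1, Pvalb and the called members of the amacrine, forebrain and vessel lists) were named after their values were seen. Some genes that these rules name are not reported here. Alternatives were genotype alone, RLE or no scaling, other filters, DESeq2 1.42.0, limma-voom (limma 3.58.1), sex as a further term, the label number as a block and leaving out each library. The test was also run on counts simulated with library set and genotype effects but no effect of sex. Its outcome is not reported here and lends no support to the calls.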

Additional observations from a re-analysis of the deposited data

How the results depend on the processing

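With library set in the fit, 4 of the 10 genes were called. With genotype alone 1 was called (1 buffer, 0 fate factors), and the same with a term for sex, which left 2 residual degrees of freedom. Leaving out single libraries gave 2 to 4 called genes, 1 to 2 buffers and 0 to 2 lower fate factors. Over all genes 2001 were called, against 36 with genotype alone, 236 with sex, 3063 with no filter, and 310 to 2707 when single libraries were left out (310 without cKO 3, 720 without control 2, 997 without control 3, 1268 without control 4). DESeq2 called 1204 higher and 1672 lower genes, against 1062 and 939 in edgeR. The label numbers 2 and 3 occur in both groups but nothing says that they pair animals. Deviations correlated within those numbers (r = 0.770 and 0.674), and number 2 lies in set A and number 3 in set B. The paired fit (replicate block, 1 residual degree of freedom) called 1 lower fate factor, with Ptf1a lost (-0.83, adjusted p = 0.0674), and 2040 genes in all. Onecut2 turned sign with genotype alone (-0.19), RLE (-0.0307), no filter (-0.0199) and DESeq2 (-0.0307), and ranged from -0.0471 to 0.0798 when single libraries were left out (below 0 without cKO 3 or control 3). Onecut1 ranged from -0.240 to 0.13 (above 0 without cKO 1 or control 2), Onecut3 turned with genotype alone (-0.16), and Pdgfra with no scaling (0.0241), a filter of at least 1 CPM (0.00555), sex (0.0518) and the replicate block (0.0946), and ranged from -0.0893 to 0.0601 over single libraries left out (above 0 without cKO 1 or cKO 3). None of these passed. For values that moved the cause was not tested, apart from fewer samples when libraries were left out. Calb1, Calb2, Foxn4 and Ptf1a were called under every scaling and filter alternative. The set difference was called in 6 to 8 of the 10 genes, over alternatives chosen after seeing the data. The difference between sets in the genotype effect could not be fitted without cKO 3 or control 2.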
